A study of Mus musculus with 12 samples.

Results

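Chemokines are small secreted proteins that steer leukocytes, and they act through a family of receptors that signal by way of inhibitory G proteins. CXC chemokines with a Glu-Leu-Arg (ELR) motif act on CXCR2, the main neutrophil receptor, whereas many inflammatory CC chemokines act on CCR1 and CCR2 of monocytes, macrophages and T cells. In brain tissue, CX3CL1 of neurons signals to CX3CR1 of microglia, and atypical receptors bind chemokines and remove or store them without G protein signaling. The expression of this family was examined around a hematoma of the mouse brain. Its members were taken by name, as every gene symbol of the forms Ccl, Cxcl, Ccr or Cxcr followed by a number, together with Cx3cl1, Xcl1, Xcr1, Ackr1 to Ackr4, Ccrl2, Pf4 and Ppbp. This gave 62 members among the 21956 genes of the table.

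The study compared 4 groups of 3 mice each, 12 libraries of poly(A) RNA from brain tissue in all. Intracerebral hemorrhage (ICH) was induced by collagenase injected into the right striatum, and sham mice underwent the same surgery without collagenase. Tissue of the ICH mice was taken 48 h after surgery from around the hematoma. Fabp4CKO mice carried floxed Fabp4 alleles (Fabp4flox/flox) and TMEM119creERT2, a tamoxifen-inducible recombinase driven from a microglial gene, so that Fabp4, which encodes a fatty acid-binding protein, could be deleted in microglia while other cells kept it. Per the study's methods, Fabp4CKO mice received tamoxifen at 150 mg/kg on each of 7 days, and surgery followed 14 days after the last dose. Fabp4flox/flox mice served as the controls. All 4 groups, named here Sham-Fabp4flox/flox, Sham-Fabp4CKO, ICH-Fabp4flox/flox and ICH-Fabp4CKO, thus carried the floxed alleles. Whether the controls received tamoxifen, and the age of the mice, were not stated in the sources used here.

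Levels are given as counts per 1000000 counts (CPM), scaled by the trimmed mean of M values (TMM) over the 12 libraries, in the order mouse 1, mouse 2 and mouse 3, and a level is compared only within a gene. Numbers name the mice of a group and are not taken to pair mice across groups. Library totals ran from 15650813 to 22406216 counts, and 3 counts, taken as the detection floor, corresponded to 0.134 to 0.192 CPM. Fabp4 itself had 2, 1 and 2 counts in Sham-Fabp4flox/flox mice, 0 in each Sham-Fabp4CKO mouse, 46, 63 and 24 in ICH-Fabp4flox/flox mice and 5, 3 and 10 in ICH-Fabp4CKO mice. The 2 ICH groups did not overlap for Fabp4, although its difference did not pass edgeR's quasi-likelihood test (log2 fold change -2.94, SE 0.62, adjusted p = 0.295) and passed DESeq2 (adjusted p = 0.00221). Markers of neurons, astrocytes, oligodendrocytes and microglia were present in every library. The summed level of 3 choroid plexus markers was 822 to 3144 CPM in Sham-Fabp4flox/flox mice, highest in mouse 3, and 11.0 to 25.8 CPM in the other 9 libraries. ICH-Fabp4CKO mouse 1 had 1 count over Y-linked genes against 1302 to 2251 in the other libraries, the labels giving no sex. In bulk tissue, fewer cells of a type and less RNA per cell cannot be told apart, and this holds for every result here.

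The promoters of 5 members are shown because these genes differed after hemorrhage or between genotypes, as given below, and hold matches to motifs of inflammatory transcription factors. Each runs 5′ to 3′ on its gene's strand from 250 bases before to 50 bases after the RefSeq start (GRCm38.p6). Capitals mark matches to the NF-kappaB-type and ISRE-type motifs described next, and to no other motif. The first 4 hold GGGNNNTTCC or its reverse complement GGAANNNCCC, the form bound by NF-kappaB factors; the stretch GGGAATTTCCC matches in both orientations, so its matches overlap. Cxcl10 and Ccl19 hold GAAANNGAAA, the repeat found in interferon-stimulated response elements (ISRE).

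Cxcl1 (chr5:90890995-90891294, plus strand): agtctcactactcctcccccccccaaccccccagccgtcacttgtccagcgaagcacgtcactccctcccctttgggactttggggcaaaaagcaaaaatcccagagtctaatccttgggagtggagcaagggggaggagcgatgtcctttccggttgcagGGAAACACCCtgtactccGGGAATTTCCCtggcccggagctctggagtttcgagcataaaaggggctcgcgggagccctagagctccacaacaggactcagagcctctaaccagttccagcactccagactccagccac
Cxcl2 (chr5:90903649-90903948, plus strand): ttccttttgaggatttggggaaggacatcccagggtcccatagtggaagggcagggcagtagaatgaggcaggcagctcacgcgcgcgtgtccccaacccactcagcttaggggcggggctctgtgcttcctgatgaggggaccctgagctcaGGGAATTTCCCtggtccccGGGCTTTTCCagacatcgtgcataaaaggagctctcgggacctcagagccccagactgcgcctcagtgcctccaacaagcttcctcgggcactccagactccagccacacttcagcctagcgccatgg
Cxcl3 (chr5:90785851-90786150, plus strand): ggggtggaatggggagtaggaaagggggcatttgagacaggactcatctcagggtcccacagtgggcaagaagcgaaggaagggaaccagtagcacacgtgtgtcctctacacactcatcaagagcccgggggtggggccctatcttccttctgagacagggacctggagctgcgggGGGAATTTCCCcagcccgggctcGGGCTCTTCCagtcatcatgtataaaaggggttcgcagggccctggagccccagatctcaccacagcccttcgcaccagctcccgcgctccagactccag
Cxcl10 (chr5:92348840-92349139, minus strand): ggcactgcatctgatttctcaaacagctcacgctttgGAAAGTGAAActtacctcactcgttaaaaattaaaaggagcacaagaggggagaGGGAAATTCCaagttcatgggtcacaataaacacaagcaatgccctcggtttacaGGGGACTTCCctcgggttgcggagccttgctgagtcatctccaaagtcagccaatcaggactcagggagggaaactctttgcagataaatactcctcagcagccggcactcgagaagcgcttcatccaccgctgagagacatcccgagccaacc
Ccl19 (chr4:42756316-42756615, minus strand): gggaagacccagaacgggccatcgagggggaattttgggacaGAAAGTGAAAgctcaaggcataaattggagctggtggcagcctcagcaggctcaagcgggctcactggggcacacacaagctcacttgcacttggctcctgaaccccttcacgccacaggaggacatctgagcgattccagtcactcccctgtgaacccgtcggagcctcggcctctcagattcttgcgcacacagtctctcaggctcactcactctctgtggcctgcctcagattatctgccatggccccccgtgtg

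On both strands, the NF-kappaB-type motif was found in 5.56% of 32851 promoters of this length, and in 9 of the 48 members that had a promoter in the table (18.8%, against 6.31% of all genes), which were Cxcl1, Cxcl2, Cxcl3, Cxcl10, Ccl1, Ccl9, Ccl20, Ccr3 and Ccr6. In Cxcl1, Cxcl2 and Cxcl3 the shared stretch began 71, 97 and 73 bases before the start. The ISRE-type motif was found in 3.44% of promoters and in 3 members, Cxcl10, Ccl19 and Cxcl14 (6.25%, against 3.99% of all genes). TGANTCA, the form bound by AP-1 factors, was found in 7.81% of promoters and in 9 members (18.8%, against 8.97% of all genes), among them Cxcl9, Cxcl10, Ccl9 and Ppbp. The match in Cxcl10 is in lower case above. These matches are letters in a window and were not tested as binding sites. Cxcl1, Cxcl2, Cxcl3, Cxcl5, Cxcl15, Pf4 and Ppbp lie in 1 run of neighbouring genes, each within 200 kb of the next, and such genes are not independent examples.

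Ccl1, Ccl21d, Ccl26 and Ccl27b, 4 of the 62 members, had 0 counts in all 12 libraries. Of the 62 members, 42 passed the filter on low counts in at least 1 comparison and 19 passed it in all 5, while 20 passed in none and have no test. The 16 detected members among those 20 were Ackr4, Ccl17, Ccl20, Ccl21a, Ccl21b, Ccl24, Ccr3, Ccr4, Ccr8, Ccr9, Cxcl13, Cxcl17, Cxcr1, Cxcr5, Xcl1 and Xcr1, and the highest count any of them reached in a library was 31, for Ackr4 in ICH-Fabp4CKO mouse 3. The levels in each mouse are mapped in the plot of members by mice, which shows 61 of the 62.

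**Figure D1:**
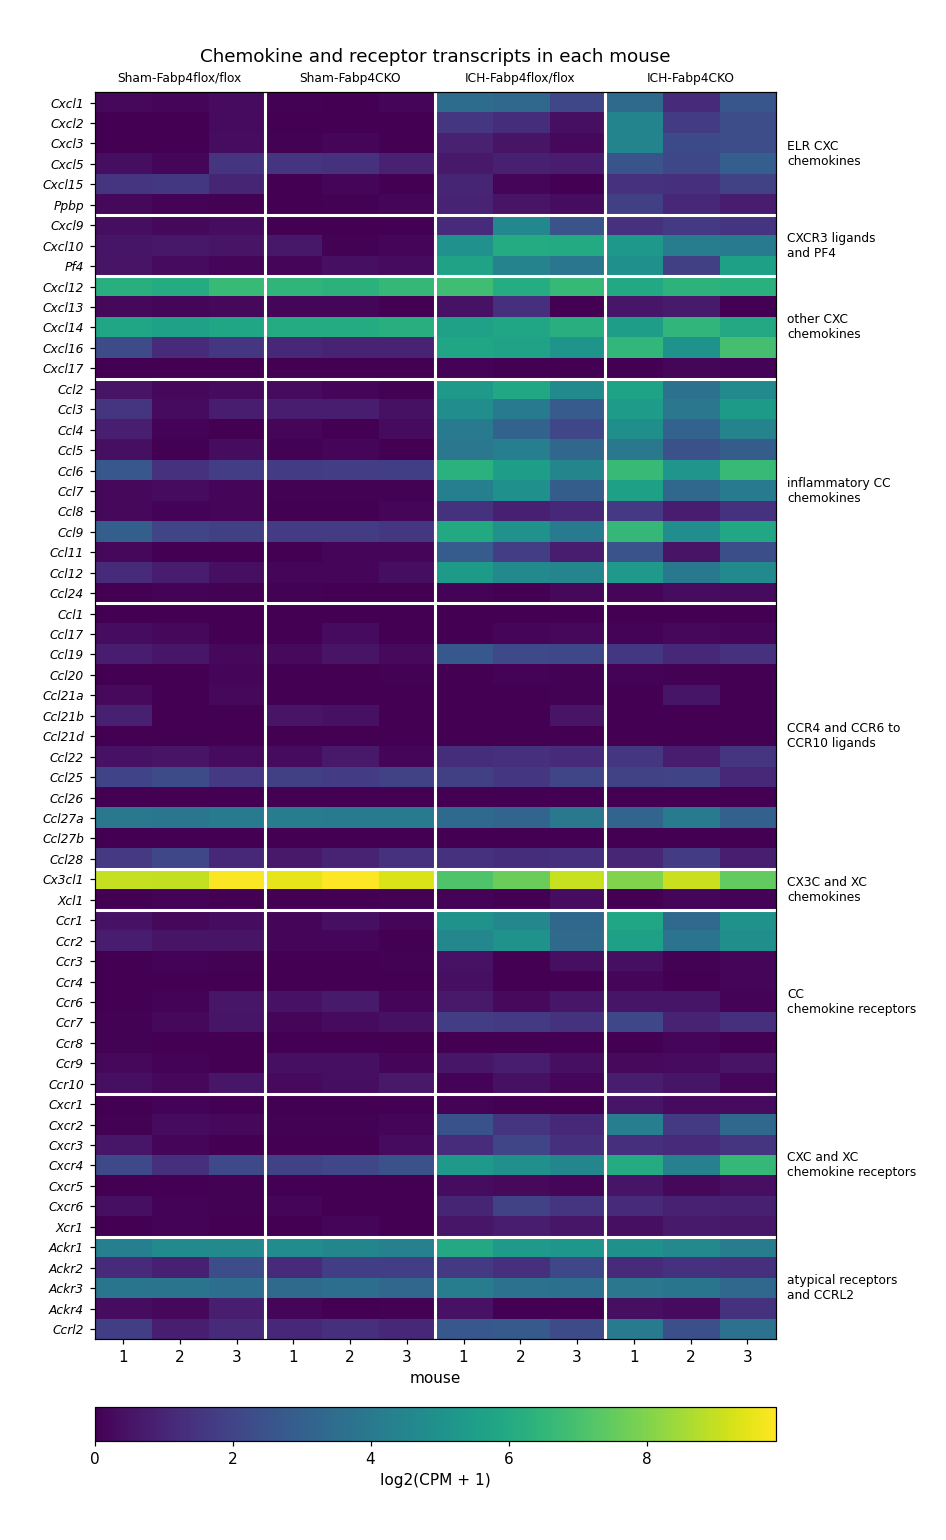
Level of each of 61 members in each of the 12 mice, as log2(CPM + 1), with members in rows ordered by role and mice in columns ordered by group; the color bar gives the scale. Most inflammatory CC chemokines, their receptors and Cxcl10 are dark (low) in the 6 sham mice and brighter (higher) after ICH, Cxcl12, Cxcl14 and Cx3cl1 are bright in all 12 mice, and 4 rows stay at 0.

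The first question was how the family changed after hemorrhage in mice with intact Fabp4. In Fabp4flox/flox mice, 37 members were tested and 27 rose after ICH, while none passed the test in the lower direction (edgeR's quasi-likelihood test, Benjamini-Hochberg adjusted p below 0.05 over 14719 genes; 10 members did not pass in either direction). Over all genes tested, 26.2% were called higher and 19.3% lower. The same 27 members were the ones whose 3 ICH values all lay above the 3 sham values, and in 0 members did they all lie below; over all genes tested the shares were 33.0% and 29.0%. The median log2 fold change was 3.42 over the members and 0.02 over all genes. Of the 27, 13 had fewer than 10 counts in each sham library, so that they passed the filter only through the ICH group. Among the 24 tested members with at least 10 counts in a sham library, 14 rose.

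The inflammatory CC chemokines rose in 10 of 10 tested cases, with log2 fold changes from 3.13 to 7.20. Of these, Ccl2, Ccl5, Ccl7, Ccl8 and Ccl11 had under 10 counts in each sham library and passed the filter only through ICH mice. Ccl2, which attracts monocytes through CCR2, was at 0.431, 0.166 and 0.210 CPM in Sham-Fabp4flox/flox mice and at 39.5, 58.4 and 25.0 CPM in ICH-Fabp4flox/flox mice. The groups did not overlap, and the difference was log2 fold change 7.20, SE 0.47, adjusted p = 0.000287, the largest of the family. Ccl12, another CCR2 ligand, was measured at 1.34, 0.663 and 0.315 CPM after sham surgery and 40.5, 24.4 and 21.8 CPM after ICH. Its groups were also apart, with log2 fold change 5.21, SE 0.50, adjusted p = 0.000466. Ccl7, also a ligand of CCR2, stood at 0.144, 0.221 and 0.105 CPM in the sham and 18.1, 30.1 and 6.59 CPM in the ICH group. Again every ICH mouse lay above every sham mouse (log2 fold change 6.83, SE 0.72, adjusted p = 0.000636).

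For Ccl5, which attracts T cells and monocytes through receptors that include CCR1, the sham values were 0.335, 0 and 0.263 CPM and the ICH values 14.1, 18.1 and 8.45 CPM. The lowest ICH value was far above the highest sham value, and the difference was log2 fold change 6.02, SE 0.64, adjusted p = 0.000653. Ccl6, a CCR1 ligand of the mouse, was at 5.46, 1.66 and 2.47 CPM in sham mice and at 77.3, 43.9 and 21.7 CPM in ICH mice. The 3 ICH values were all higher than the 3 sham values, the lowest in mouse 3 (log2 fold change 3.90, SE 0.60, adjusted p = 0.00250). Ccl3, Ccl4, Ccl8, Ccl9 and Ccl11, which include ligands of CCR1 and CCR3, rose by log2 fold changes of 4.12, 4.94, 3.54, 3.13 and 5.77. The sham group had only 3 counts of Ccl11, an eosinophil attractant, in total, and the ratio of CPM was 57.0 (95% counting interval 19.1 to 279).

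The interferon-inducible ligands of CXCR3, which attract T cells and natural killer cells, and Pf4, a platelet and macrophage chemokine, rose in 3 of 3 cases. Of these, Cxcl9 and Pf4 had under 10 counts in each sham library and passed the filter only through ICH mice. Cxcl10 was measured at 0.479, 0.552 and 0.420 CPM after sham surgery and 30.9, 67.0 and 64.8 CPM after ICH. The groups were far apart, with log2 fold change 6.81, SE 0.40, adjusted p = 0.000279. Cxcl9 stood at 0.287, 0.166 and 0.263 CPM in the sham and 1.31, 23.1 and 4.78 CPM in the ICH group. Mouse 2 stood above the others, yet even the lowest ICH value exceeded all sham values (log2 fold change 5.31, SE 1.13, adjusted p = 0.00898). For Pf4 the sham values were 0.431, 0.221 and 0.105 CPM and the ICH values 50.8, 20.4 and 13.6 CPM. All 3 ICH mice were higher, mouse 1 most of all, and the difference was log2 fold change 6.76, SE 0.72, adjusted p = 0.000640. Summed, 4 other platelet markers were at 4.74 to 6.24 CPM in these sham mice and 14.3 to 22.7 CPM in the ICH mice, and the part of platelets in the rise of Pf4 was not tested.

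Of the ELR chemokines, Cxcl1 rose, whereas Cxcl5 and Cxcl15 did not pass the test, and Cxcl2, Cxcl3 and Ppbp did not pass the filter on low counts. Cxcl1, a CXCR2 ligand, was at 0.144, 0.110 and 0.210 CPM in sham mice and at 10.2, 9.19 and 3.29 CPM in ICH mice. The groups did not overlap (log2 fold change 5.56, SE 0.60, adjusted p = 0.000661). Cxcl5, also a CXCR2 ligand, was measured at 0.287, 0.110 and 1.89 CPM after sham surgery and 0.591, 0.847 and 0.744 CPM after ICH. Sham mouse 3 lay above all 3 ICH mice, the groups overlapped, and the difference was log2 fold change -0.04, SE 0.89, adjusted p = 0.972; without that mouse the value was 1.77. Cxcl2 had 0, 0 and 4 counts in sham and 30, 24 and 6 counts in ICH mice, and Cxcl3 had 0, 0 and 5 against 13, 7 and 3.

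Among the remaining CXC chemokines, Cxcl16 rose and Cxcl12 and Cxcl14 did not pass the test. Cxcl16, a membrane-bound ligand of CXCR6, stood at 3.78, 1.33 and 1.94 CPM in the sham and 55.2, 50.3 and 33.7 CPM in the ICH group. The groups were apart (log2 fold change 4.30, SE 0.40, adjusted p = 0.000457). Cxcl16 overlaps Zmynd15 on the opposite strand. Zmynd15 was at 0.144, 0.166 and 0.158 CPM in sham and 2.63, 1.15 and 1.75 CPM in ICH mice (log2 fold change 3.53). Its part in the Cxcl16 value was not tested, and whether the counting used strand is not given in the sources used here. For Cxcl12, the constitutive ligand of CXCR4, the sham values were 72.6, 67.0 and 98.6 CPM and the ICH values 113, 67.9 and 98.1 CPM. Its values overlapped between groups, and the difference was log2 fold change 0.25, SE 0.24, adjusted p = 0.411. Cxcl14 had a log2 fold change of 0.14 (adjusted p = 0.542).

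Of 5 tested ligands grouped by the receptors CCR4, CCR6, CCR7, CCR8, CCR9 and CCR10, 2 rose. Ccl19, a CCR7 ligand for dendritic and naive T cells, was at 0.670, 0.497 and 0.158 CPM in sham mice and at 5.58, 3.51 and 3.45 CPM in ICH mice. The ICH values lay above all sham values (log2 fold change 3.23, SE 0.51, adjusted p = 0.00279). Ccl22, a CCR4 ligand made by dendritic cells, was measured at 0.383, 0.442 and 0.210 CPM after sham surgery and 1.45, 1.57 and 1.28 CPM after ICH. The groups were apart, although sham counts were low (log2 fold change 2.05, SE 0.42, adjusted p = 0.00818). Ccl25, Ccl27a and Ccl28 had log2 fold changes of -0.18, -0.44 and -0.52, and none of them passed the test.

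Cx3cl1, the neuronal ligand of the microglial receptor CX3CR1, was lower than all sham mice in 2 of 3 ICH mice. Cx3cl1 stood at 508, 506 and 909 CPM in the sham and 142, 202 and 527 CPM in the ICH group. ICH mouse 3 lay within the sham range, and the difference did not pass the test (log2 fold change -1.12, SE 0.50, adjusted p = 0.102). Summed, 6 neuron markers were at 3976, 4783 and 4567 CPM in these sham mice and at 1191, 1934 and 3637 CPM in the ICH mice. The order of the sums was that of Cx3cl1 in the ICH mice but not in the sham mice. The part of these markers in the Cx3cl1 value was not tested. Cx3cr1, the receptor, which is no member by its name, was at 64.3, 59.9 and 64.7 CPM in sham and at 224, 232 and 270 CPM in ICH mice (log2 fold change 1.96, SE 0.15, adjusted p = 0.000341).

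Among the signaling receptors, Ccr1, Ccr2 and Ccr7 and 4 of 4 tested CXC receptors rose. Of these, Ccr1, Ccr7, Cxcr2 and Cxcr6 had under 10 counts in each sham library and passed the filter only through ICH mice. For Ccr1, a receptor of myeloid cells, the sham values were 0.383, 0.166 and 0.263 CPM and the ICH values 31.5, 22.9 and 9.03 CPM. The difference was log2 fold change 6.25, SE 0.60, adjusted p = 0.000488. Ccr2, the receptor of inflammatory monocytes, was at 0.670, 0.442 and 0.420 CPM in sham mice and at 23.1, 32.7 and 9.78 CPM in ICH mice. Its groups did not overlap (log2 fold change 5.40, SE 0.53, adjusted p = 0.000518). Ccr7, the receptor of Ccl19, rose with a log2 fold change of 3.22 (adjusted p = 0.00669) from 0.0479, 0.166 and 0.473 to 2.43, 2.24 and 1.75 CPM.

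Cxcr4, the receptor of Cxcl12, was measured at 3.54, 1.55 and 3.47 CPM after sham surgery and 38.8, 30.4 and 22.0 CPM after ICH. It rose, whereas its ligand did not pass the test (log2 fold change 3.42, SE 0.36, adjusted p = 0.000644). Cxcr2, the neutrophil receptor of the ELR chemokines, stood at 0.0479, 0.221 and 0.158 CPM in the sham and 4.66, 1.81 and 1.17 CPM in the ICH group. All ICH values lay above the sham values, and mouse 1 was highest (log2 fold change 4.14, SE 0.76, adjusted p = 0.00518). For Cxcr6, the receptor of Cxcl16 on T cells, the sham values were 0.335, 0.0552 and 0.0526 CPM and the ICH values 1.05, 2.90 and 1.81 CPM. Its groups were apart as well (log2 fold change 3.61, SE 0.73, adjusted p = 0.00757). Cxcr3, the receptor of Cxcl9 and Cxcl10, went from 0.526, 0.110 and 0 CPM to 1.38, 3.21 and 1.59 CPM (log2 fold change 3.20, SE 0.88, adjusted p = 0.0219).

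The atypical receptors moved less. Ackr1, which venous endothelium and red cells use to bind many chemokines, was at 18.3, 25.7 and 25.3 CPM in sham mice and at 61.0, 38.9 and 35.6 CPM in ICH mice. The groups did not overlap, and the difference was log2 fold change 0.99, SE 0.25, adjusted p = 0.0163. Exons of Ackr1 overlap exons of Cadm3 on the same strand, and Cadm3 had a log2 fold change of -1.36. Ccrl2, which presents chemerin rather than chemokines, was measured at 2.54, 0.773 and 1.31 CPM after sham surgery and 5.39, 5.93 and 3.83 CPM after ICH. The difference passed the test (log2 fold change 1.71, SE 0.45, adjusted p = 0.0190). Ackr3, a scavenger of Cxcl12, ranged from 10.8 to 13.2 CPM in Sham-Fabp4flox/flox and from 11.3 to 17.4 CPM in ICH-Fabp4flox/flox mice. These values overlapped (log2 fold change 0.15, SE 0.22, adjusted p = 0.604), and Ackr2, a scavenger of inflammatory CC chemokines, had a log2 fold change of 0.26 (adjusted p = 0.748).

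**Figure D2:**
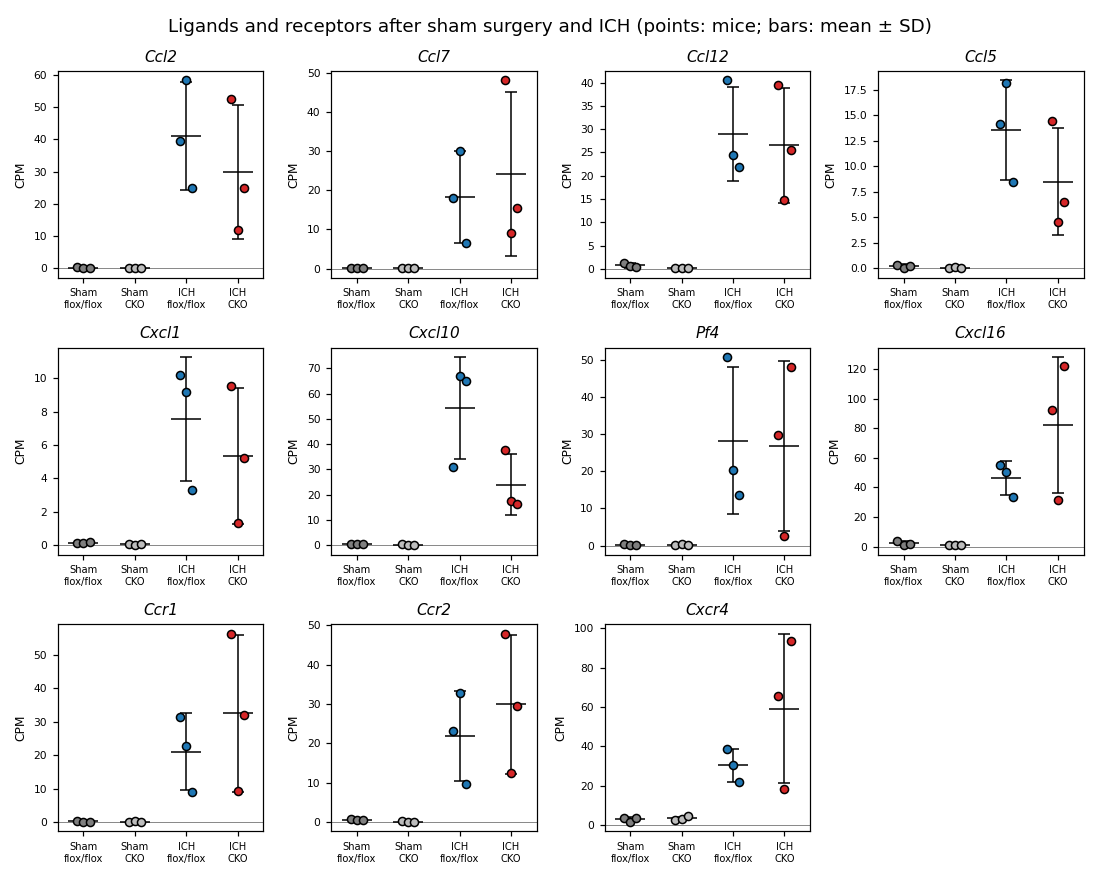
CPM of 11 members in the 3 mice of each of the 4 groups, 1 panel per member with its own axis and a line at 0; points are mice and black bars the mean with SD. In both genotypes all ICH points lie above the sham points in each of the 11 panels, and the ICH-Fabp4CKO points spread widely, with mouse 2 lowest in every panel but that of Cxcl10.

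Of the leukocyte markers tested in the same comparison, 8 of 8 of monocytes and macrophages and 4 of 5 of neutrophils rose. So did 5 of 7 of T cells, 3 of 3 of natural killer cells and 1 of 1 of B cells. For microglia it was 6 of 7 and for dendritic cells 0 of 2, where 26.2% of all genes were called higher. The summed level of 8 monocyte and macrophage markers was 77.4 to 95.0 CPM in Sham-Fabp4flox/flox mice and 600 to 2158 CPM in ICH-Fabp4flox/flox mice, and that of 8 neutrophil markers was 6.30 to 13.1 and 52.3 to 85.3 CPM, with Ly6g at 0 in the latter group. Their part in the rises of the members was not tested.

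The second question was whether the family also changed in mice without microglial Fabp4. In Fabp4CKO mice, 39 members were tested, and 30 rose after ICH while none passed in the lower direction (24.5% and 11.1% of 14737 genes were called higher and lower). The 3 ICH values lay above the 3 sham values in 30 tested members and below them in 1, Cx3cl1 (32.1% and 30.3% of all genes). The median log2 fold change was 4.86 over the members, also with 2 members of 0 sham counts set to their lower bound, and 0.01 over all genes. Of the 30, 19 had fewer than 10 counts in each sham library, and among the 20 tested members with at least 10 counts in a sham library 11 rose. The count of 30 depended on the sham mice: without 1 of the 3 Sham-Fabp4CKO mice it was 16, 15 or 16, when 4.69% to 5.32% of all genes were called higher. Without ICH-Fabp4CKO mouse 1 it was 25, and without mouse 2, which was lowest of the 3 ICH mice for each of 10 inflammatory CC chemokines, it was 31. The summed monocyte and macrophage markers were at 77.1 to 78.8 CPM in Sham-Fabp4CKO mice, with Chil3 at 0, and at 2394, 453 and 3131 CPM in ICH-Fabp4CKO mice, where mouse 2 was again lowest. The neutrophil markers summed to 5.01 to 9.44 CPM and to 211, 71.5 and 327 CPM, and the part of both in these rises was not tested.

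All 6 ELR chemokines passed in this genotype, and 5 of the 6 had 4 counts or fewer over the sham group. Without Sham-Fabp4CKO mouse 1 or mouse 3, 0 of the 6 were called, and without mouse 2 only Cxcl15 was. Cxcl5 was also not called without ICH-Fabp4CKO mouse 1 or mouse 3, with the replicate block or with all 12 libraries in 1 fit. Cxcl2 had 0 counts in the 3 sham mice and 20.9, 2.40 and 4.05 CPM after ICH, at least 181-fold higher by a floor of 3 counts over the group (adjusted p = 0.0249, edgeR's quasi-likelihood test). Cxcl3 stood at 0.0473, 0.136 and 0 CPM in the sham and 20.9, 3.63 and 4.11 CPM in the ICH group. The ratio was 143 with a 95% counting interval of 55.6 to 528 (adjusted p = 0.0100), and mouse 1 was highest in both genes. Cxcl1 had 3 counts over the sham group and was at 9.52, 1.33 and 5.22 CPM after ICH, a ratio of 109 (37.0 to 534; adjusted p = 0.00950). For Cxcl5 the sham values were 1.84, 1.68 and 0.890 CPM and the ICH values 4.95, 3.47 and 6.77 CPM. Here the groups did not overlap (log2 fold change 1.79, SE 0.38, adjusted p = 0.0194). Cxcl15 and Ppbp, each with 3 counts over the sham group, had ratios of 42.5 (14.1 to 210) and 31.4 (10.3 to 155).

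The CC chemokines and receptors followed. Ccl2 was at 0.236, 0.0907 and 0.0468 CPM in sham mice and at 52.6, 11.9 and 25.1 CPM in ICH mice. The groups did not overlap (log2 fold change 7.85, SE 0.83, adjusted p = 0.00540). Ccl12 was measured at 0.142, 0.136 and 0.281 CPM after sham surgery and 39.4, 14.8 and 25.5 CPM after ICH. This was the member with the smallest p in this genotype (log2 fold change 7.12, SE 0.54, adjusted p = 0.00478). Ccr2 stood at 0.142, 0.0907 and 0 CPM in the sham and 47.8, 12.5 and 29.6 CPM in the ICH group. The sham group held 5 counts of Ccr2 in all, and the ratio was 372 (95% counting interval 159 to 1147; adjusted p = 0.00478).

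For Cxcl10 the sham values were 0.567, 0.0454 and 0.141 CPM and the ICH values 37.8, 17.4 and 16.4 CPM. Its groups were apart (log2 fold change 6.56, SE 0.76, adjusted p = 0.00572). Cxcl9 had 0 counts in the sham group and 1.63, 2.24 and 1.78 CPM after ICH, at least 40.9-fold higher. Pf4 was at 0.0946, 0.318 and 0.234 CPM in sham mice and at 29.9, 2.67 and 48.1 CPM in ICH mice. Mouse 2 was far below the other ICH mice, though above all sham mice (log2 fold change 6.92, SE 1.24, adjusted p = 0.0120). Cx3cl1 was measured at 721, 937 and 633 CPM after sham surgery and 254, 542 and 181 CPM after ICH. All 3 ICH values lay below the sham values, and the difference did not pass the test (log2 fold change -1.21, SE 0.43, adjusted p = 0.0675). Ackr1, which rose in the other genotype, had a log2 fold change of 0.09 (SE 0.25, adjusted p = 0.779), and Cxcl12 had one of -0.23 (adjusted p = 0.241).

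The 2 comparisons use different mice. Over the 36 members tested in both, the log2 fold changes correlated with Pearson's r of 0.87, a description over genes of which many share a chromosomal cluster, against 0.88 over 14522 genes. In both genotypes 25 members rose. Over all genes, 26.2% were called higher in Fabp4flox/flox and 24.5% in Fabp4CKO mice, and the share called in both was not counted. The fitted change was larger in Fabp4CKO mice for 27 of the 36 (75%), against 56.5% of all genes, and for members near the floor in sham the fitted value depends on the prior count.

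**Figure D3:**
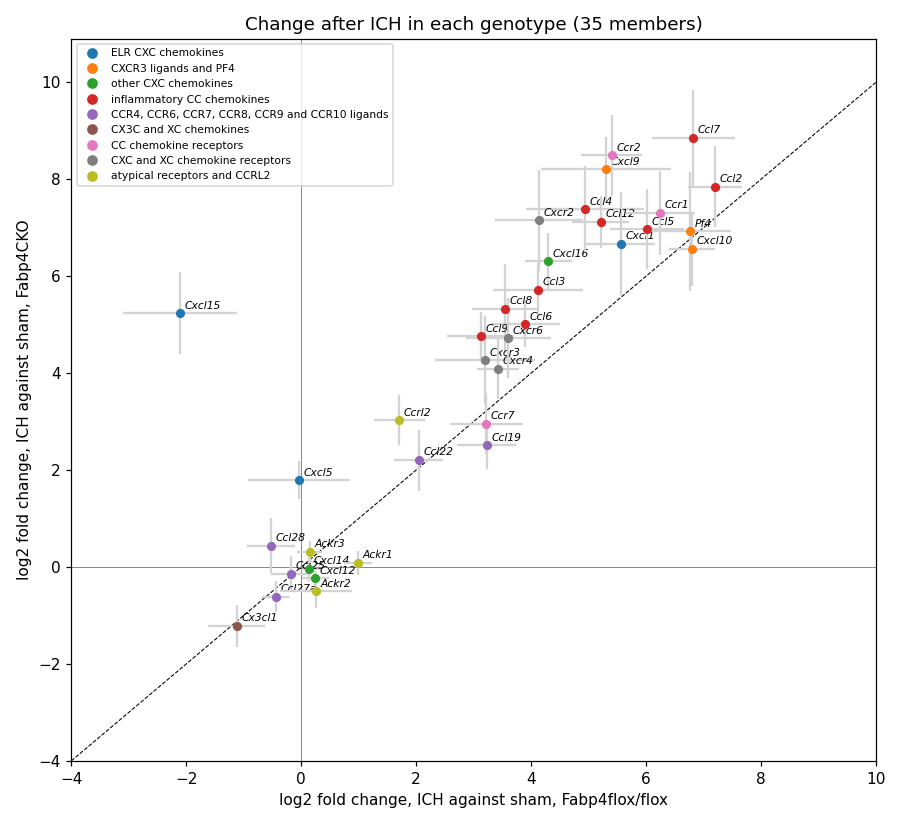
Log2 fold change after ICH in Fabp4flox/flox mice (horizontal axis) and in Fabp4CKO mice (vertical axis) for 35 of the 36 members tested in both, 1 point per member with grey bars of 1 SE, and the line of equal change. Most points lie above the line, and Cx3cl1 lies below 0 on both axes.

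The third question was whether loss of microglial Fabp4 altered the family after hemorrhage. Of 40 members tested between ICH-Fabp4CKO and ICH-Fabp4flox/flox mice, 0 passed edgeR's quasi-likelihood test in either direction, as did 0% of all 14600 genes, while 7 members had an unadjusted p below 0.05 (12.2% of all genes). Of the 40, 3 were higher (Cxcl5, Cxcl3 and Cxcl2) and 4 lower (Ccl19, Ackr1, Cxcl10 and Cxcl9) at an unadjusted p below 0.05 and at least 1.5-fold, against 4.40% and 4.43% of all genes. By DESeq2, Cxcl3 and Cxcl5 were higher and Ccl19 lower at an adjusted p below 0.05, and with all 12 libraries in 1 edgeR fit Cxcl3 was higher. The share of 0% belongs to the main fit, and the shares of all genes by these other fits are not given here. The 3 values of 1 genotype lay above all of the other in 6 members, Cxcl2, Cxcl3, Cxcl5 and Cxcl15 higher in Fabp4CKO and Ccl19 and Ackr1 lower (10.3% and 9.51% of all genes). Among 40 members, these 4 and 2 were no more than the shares over all genes. Mitochondrial transcripts took 16.3%, 10.4% and 11.9% of counts in ICH-Fabp4flox/flox and 8.37%, 9.50% and 7.90% in ICH-Fabp4CKO mice, which did not overlap either, and their part in the differences between these groups was not tested.

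The ELR chemokines had 5 of 6 log2 fold changes above 0 (56.2% of all genes tested), from -0.51 for Cxcl1 to 4.32 for Cxcl3. Cxcl5 was at 0.591, 0.847 and 0.744 CPM in ICH-Fabp4flox/flox mice and at 4.95, 3.47 and 6.77 CPM in ICH-Fabp4CKO mice. The nearest values of the groups were 0.847 and 3.47 CPM (log2 fold change 2.78, SE 0.37, adjusted p = 0.190; DESeq2 adjusted p = 3.98e-07). Cxcl3 was at 0.854, 0.423 and 0.159 CPM and 20.9, 3.63 and 4.11 CPM in the same groups. Its groups did not overlap either (log2 fold change 4.32, SE 0.96, adjusted p = 0.295; DESeq2 adjusted p = 0.000355), and without ICH-Fabp4CKO mouse 1, the highest, the log2 fold change was 3.01.

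A further 2 ELR members were picked out after their values were seen, because their groups did not overlap. In that direction 10.3% of all genes tested did not overlap either. Cxcl2 was at 1.97, 1.45 and 0.319 CPM in ICH-Fabp4flox/flox and 20.9, 2.40 and 4.05 CPM in ICH-Fabp4CKO mice, with nearest values of 1.97 and 2.40 CPM (log2 fold change 2.87, SE 1.01, adjusted p = 0.356). Without ICH-Fabp4CKO mouse 1 its log2 fold change was 1.37. Cxcl15, known as lungkine, was at 1.05, 0.121 and 0 CPM and 1.63, 1.55 and 2.72 CPM (log2 fold change 2.36, SE 1.08, adjusted p = 0.442). Cxcl1, in contrast, was at 10.2, 9.19 and 3.29 CPM and 9.52, 1.33 and 5.22 CPM, with overlapping groups (log2 fold change -0.51, SE 0.72, adjusted p = 0.804). Cxcr2, the receptor of these ligands, was at 4.66, 1.81 and 1.17 CPM and 17.9, 2.19 and 8.93 CPM. Mouse 2 of ICH-Fabp4CKO lay among the values of the other genotype, and the difference did not pass (log2 fold change 1.92, SE 0.83, adjusted p = 0.423).

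Neutrophil markers were set beside these ligands. Summed over 8 genes, the markers were at 85.3, 57.3 and 52.3 CPM in ICH-Fabp4flox/flox mice, with Ly6g at 0, and 211, 71.5 and 327 CPM in ICH-Fabp4CKO mice, where none of the 8 was at 0. These sums overlapped, and in ICH-Fabp4CKO mice the highest was that of mouse 3. Of the ELR chemokines there, Cxcl5 and Cxcl15 were highest in mouse 3 and Cxcl1, Cxcl2, Cxcl3 and Ppbp in mouse 1. The markers did not share an order either, with S100a8 and S100a9 highest in mouse 1 and Mmp8 in mouse 3. All 6 tested markers had a log2 fold change above 0 (median 2.79), and 0 of them passed the test. Their part in the values of the ELR chemokines was not tested.

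The lower members were a CCR7 ligand, an endothelial receptor and the CXCR3 ligands. Ccl19 was at 5.58, 3.51 and 3.45 CPM in ICH-Fabp4flox/flox and 2.02, 1.12 and 1.66 CPM in ICH-Fabp4CKO mice. The groups did not overlap (log2 fold change -1.39, SE 0.36, adjusted p = 0.313; DESeq2 adjusted p = 0.0186). Ackr1 was at 61.0, 38.9 and 35.6 CPM and 30.0, 23.9 and 16.8 CPM, the second close to the sham range of 18.3 to 26.4 CPM over both genotypes. These groups were apart as well (log2 fold change -0.95, SE 0.30, adjusted p = 0.347), and Cadm3, with which it overlaps, had a log2 fold change of 0.25. Endothelial markers, summed over 6 genes, were at 502 to 1019 CPM in ICH-Fabp4flox/flox and 273 to 365 CPM in ICH-Fabp4CKO mice, with 0 of 6 markers above 0 in log2 fold change (median -1.26) and none at 0 counts. Lower sums were not limited to endothelial markers. Summed over 4 genes, oligodendrocyte markers were at 14451 to 20402 CPM in ICH-Fabp4flox/flox and 5616 to 9277 CPM in ICH-Fabp4CKO mice. Of these 4 markers, 0 had a log2 fold change above 0 (median -1.19). Astrocyte marker sums did not overlap either, at 4865 to 5719 and 3394 to 4302 CPM, whereas those of neurons and microglia overlapped. The part of any of these markers in the Ackr1 and Ccl19 values was not tested.

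Cxcl10 was at 30.9, 67.0 and 64.8 CPM in ICH-Fabp4flox/flox and at 37.8, 17.4 and 16.4 CPM in ICH-Fabp4CKO mice. Mouse 1 of ICH-Fabp4CKO lay above mouse 1 of ICH-Fabp4flox/flox, so that the groups overlapped (log2 fold change -1.19, SE 0.44, adjusted p = 0.365). Cxcl9 was at 1.31, 23.1 and 4.78 CPM and 1.63, 2.24 and 1.78 CPM (log2 fold change -2.36, SE 0.96, adjusted p = 0.400), and without ICH-Fabp4flox/flox mouse 2 its log2 fold change was -0.71. Natural killer cell markers, summed over 4 genes, were at 3.48 to 7.92 CPM against 0.640 to 1.56 CPM, with none of the 4 at 0, and their part in these values was not tested.

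The 6 members with the highest log2 fold changes after ICH in Fabp4flox/flox mice did not pass between genotypes. Apart from Cxcl10, given above, their log2 fold changes were -0.46 for Ccl2, 0.41 for Ccl7, -0.08 for Pf4, 0.62 for Ccr1 and -0.68 for Ccl5, with SEs from 0.49 to 0.94 and adjusted p values from 0.598 to 0.979 by edgeR's quasi-likelihood test. Ccr2 (0.45), Cxcr4 (0.96) and Cxcl16 (0.82) did not pass either. For Cxcr4, ICH-Fabp4CKO mice ranged from 18.5 to 93.7 CPM and ICH-Fabp4flox/flox mice from 22.0 to 38.8 CPM. The inflammatory CC chemokines had 6 of 10 values above 0, where 56.2% of all genes had one. A p that misses the threshold does not show that the genotypes had the same level.

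**Figure D4:**
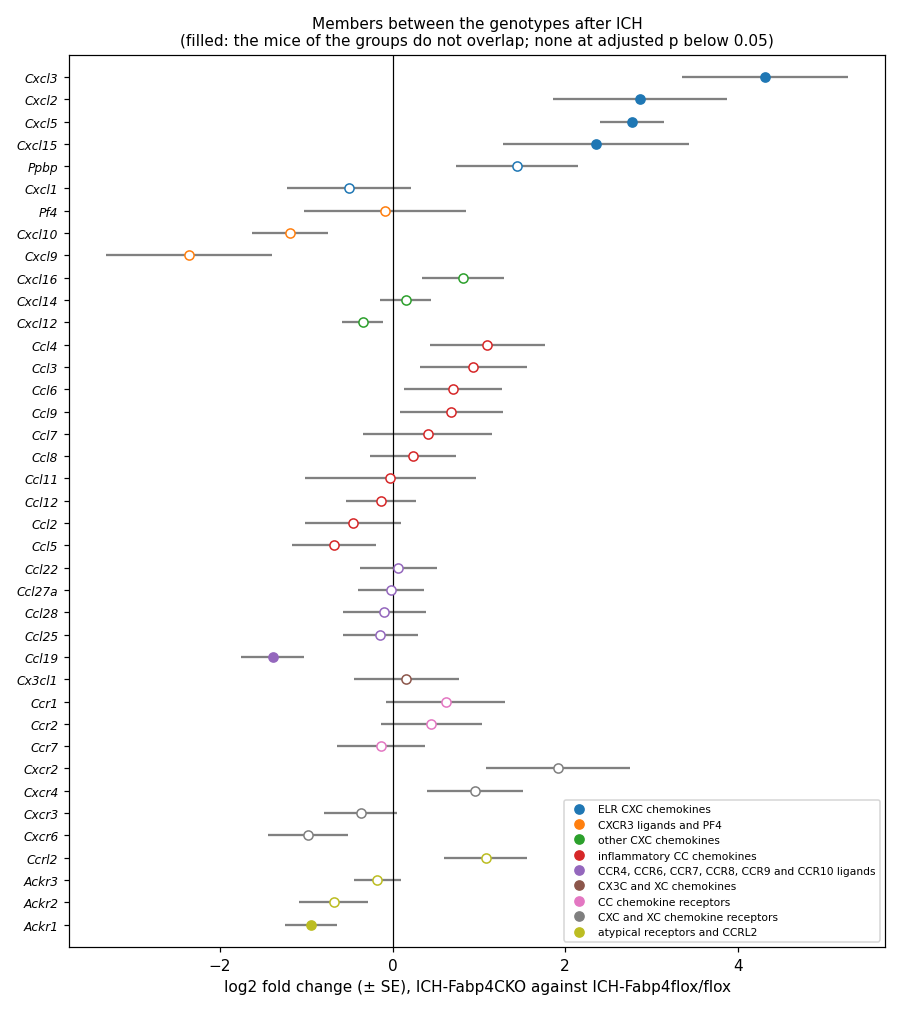
Log2 fold change of ICH-Fabp4CKO against ICH-Fabp4flox/flox for 39 of the 40 tested members, 1 point per member with bars of 1 SE, ordered by role; filled points mark members whose 3 values per genotype do not overlap. Cxcl3, Cxcl2, Cxcl5 and Cxcl15 lie above 0 and Ccl19 and Ackr1 below 0 as the filled points.

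**Figure D5:**
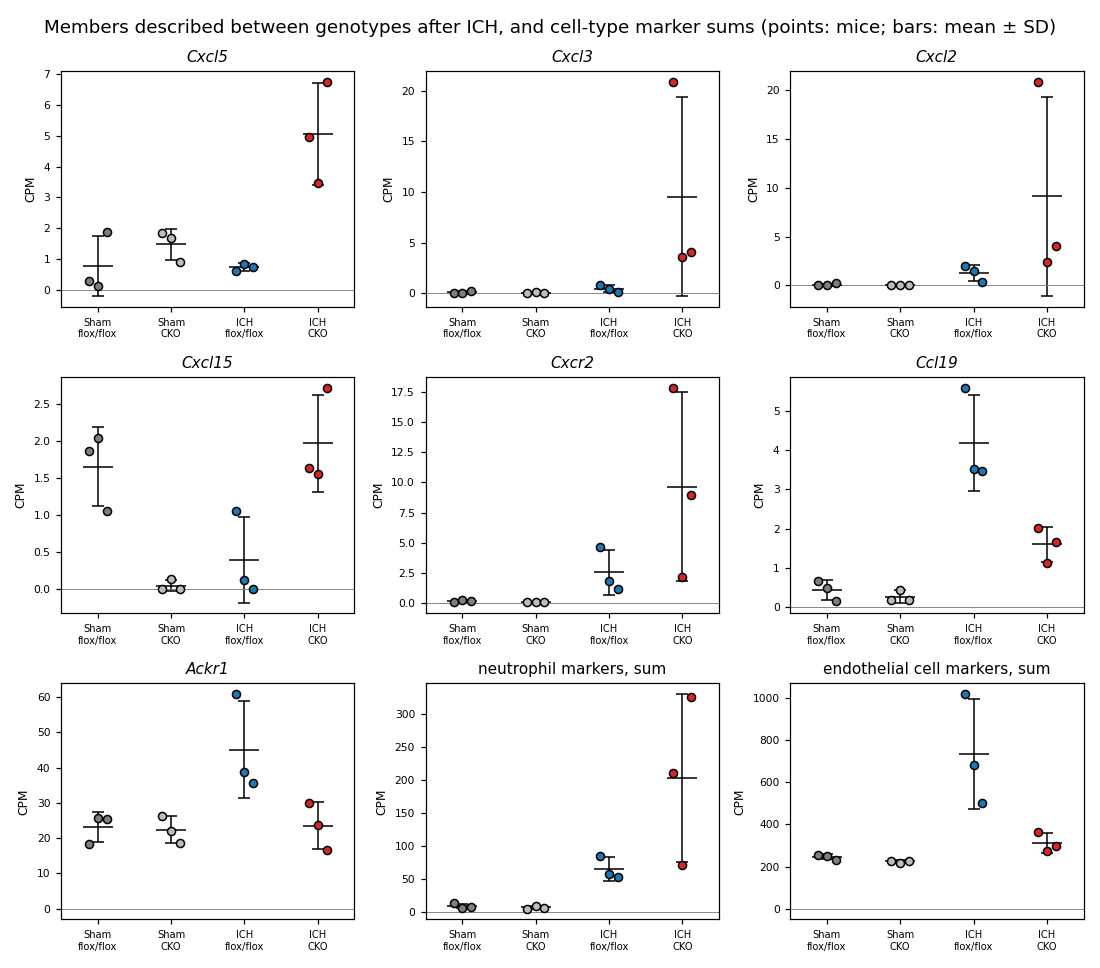
CPM in the 3 mice of each of the 4 groups for 7 members described between genotypes and for the summed neutrophil and endothelial markers, with a line at 0 in each panel; points are mice and black bars the mean with SD. The ICH-Fabp4CKO points of Cxcl5 and Cxcl3 lie above those of ICH-Fabp4flox/flox, those of Ccl19 and Ackr1 below; the endothelial marker sums of ICH-Fabp4CKO mice lie below those of ICH-Fabp4flox/flox mice, and the neutrophil marker sums overlap through mouse 2.

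In sham mice, 19 members were tested between genotypes and 0 passed edgeR's quasi-likelihood test in either direction (0% of 14395 genes were called higher and 0.111% lower), with 5 at an unadjusted p below 0.05 (10.2% of all genes) and 1, Cxcl15, called by DESeq2. Cxcl15 was at 1.87, 2.04 and 1.05 CPM in Sham-Fabp4flox/flox and at 0, 0.136 and 0 CPM in Sham-Fabp4CKO mice. The groups did not overlap; with 3 counts in the second group the ratio of Sham-Fabp4CKO to Sham-Fabp4flox/flox was 0.0281 (95% counting interval 0.00569 to 0.0846; adjusted p = 0.127). Cxcl16 and Ccl9 were lower (log2 fold changes -1.19 and -0.96) and Cxcl14 higher (0.33) without overlap, when 8.07% and 6.79% of all genes were so, and none passed the adjusted test. Choroid plexus markers were far higher in the Sham-Fabp4flox/flox mice, as given above, and their part in these values was not tested. Without Sham-Fabp4flox/flox mouse 3, the highest in those markers, 4 members were called higher (Cxcl5, Cxcl12, Cxcl14 and Cx3cl1) and 3 lower (Cxcl15, Ccl9 and Ccl12), when 10.5% and 9.12% of all genes were called.

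The last test asked whether the change after ICH differed between the genotypes. Of 42 members, 0 passed edgeR's quasi-likelihood test in either direction (0.0133% of 15089 genes were called higher and 0.00663% lower), 6 had an unadjusted p below 0.05 (9.94% of all genes), and Cxcl15 was called by DESeq2. At an unadjusted p below 0.05 and at least 1.5-fold, Cxcl15, Cxcl16, Ccr2, Ccl12 and Cxcl3 had a larger change in Fabp4CKO mice and Ackr1 a smaller one (4.61% and 3.29% of all genes). For Cxcl15 the difference of log2 fold changes was 7.28 (SE 1.56, adjusted p = 0.186), which combined a value of -2.11 in Fabp4flox/flox mice that did not pass (adjusted p = 0.116) with the rise from 3 sham counts in Fabp4CKO mice. The choroid plexus markers had the same direction, with a median difference of 5.73 and 2 of 3 called higher, and a median log2 fold change of -6.67 after ICH in Fabp4flox/flox mice. Their order by mouse was another one. The sums were 822, 1584 and 3144 CPM in Sham-Fabp4flox/flox mice, where Cxcl15 was at 1.87, 2.04 and 1.05 CPM. In ICH-Fabp4CKO mice the sums were 11.0 to 15.1 CPM and Cxcl15 was at 1.63, 1.55 and 2.72 CPM. The part of these markers in the Cxcl15 value was not tested. Without ICH-Fabp4CKO mouse 2, Cxcl15 and Cxcl16 were called, and without ICH-Fabp4flox/flox mouse 1, Cxcl15 was. For Ccr2 the difference of 3.03 (SE 1.14, adjusted p = 0.412) stood beside sham counts of 14, 8 and 8 in Fabp4flox/flox against 3, 2 and 0 in Fabp4CKO mice. For Ackr1 it was -0.95 (SE 0.38, adjusted p = 0.438).

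Other genes of the chemokine pathway, taken from lists by function, are read against the shares of all genes called after ICH, 26.2% higher and 19.3% lower in Fabp4flox/flox and 24.5% and 11.1% in Fabp4CKO mice. Of 24 tested signal transducers, 16 rose and 2 fell in Fabp4flox/flox mice and 19 rose and 1 fell in Fabp4CKO mice (66.7% and 8.33%, and 79.2% and 4.17%). Jak3, a cytokine receptor kinase of leukocytes, and Pik3cg, the phosphoinositide 3-kinase that acts below chemokine receptors, rose with log2 fold changes of 3.29 and 2.77 in Fabp4flox/flox mice. Tiam1 and Ptk2b, a Rac activator and a focal adhesion-type kinase, fell by 1.22 and 1.02 on the log2 scale. Of 14 G proteins, receptor kinases, arrestins and regulators, 4 rose and 3 fell in Fabp4flox/flox and 4 rose and 2 fell in Fabp4CKO mice. These shares (28.6% and 21.4%, and 28.6% and 14.3%) were near those of all genes. Gnai2, the inhibitory G protein alpha subunit of leukocytes, rose by 1.53 and Rgs1, which shortens G protein signaling, by 4.93, while Gng2 fell by 1.68 and Grk3, a receptor kinase, fell by 1.31, all on the log2 scale.

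Of 5 further receptors and chemokine-like ligands, 4 rose in Fabp4flox/flox and 3 in Fabp4CKO mice, with Cx3cr1 as given and Cmklr1, the chemerin receptor, at a log2 fold change of 2.92. Of 9 tested proteoglycans and proteases that bind or trim chemokines, 7 and 6 rose. Those with the smallest p in Fabp4flox/flox mice were Mmp8, a neutrophil collagenase, and Mmp2, which cleaves Ccl7 and Cxcl12, with log2 fold changes of 8.09 and 1.75. Of the genes annotated to KEGG chemokine signaling that are no members, 47 of 126 rose and 27 fell in Fabp4flox/flox mice, and 49 of 124 rose and 18 fell in Fabp4CKO mice. This was 37.3% and 21.4%, and 39.5% and 14.5%, so that the lower shares were near those of all genes, and the median log2 fold change of this list was 0.07 and 0.18. None of these lists had a gene called between genotypes after ICH, in sham or by the interaction with edgeR's quasi-likelihood test.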

How the data were processed

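Total RNA of brain tissue was extracted with Trizol, poly(A) RNA was selected and libraries were made with a NEBNext Ultra RNA kit, per the labels; whether counting used strand is not given in the sources used here. Estimated counts per gene were deposited by the authors, of which 7.36% to 8.69% of values per library were not whole, and these were rounded to whole numbers here. Bowtie2 2.2.8, HISAT2, StringTie 1.3.1 and DESeq2 are named in the submitters' processing notes without their roles, and the genome build and counting tool are not given in the sources used here. Fold-change and p-value columns of the authors' own comparisons were not used.

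Groups followed the sample labels. Each comparison was fitted on the whole table with edgeR 4.0.16 in R 4.3.3 (TMM factors, genes kept by filterByExpr at a minimum count of 10 and a total of 15, quasi-likelihood F-test) and adjusted by Benjamini-Hochberg over all genes tested, with calls at an adjusted p below 0.05. Comparisons of 2 groups used their 6 libraries, and the interaction used all 12. A second rule took an unadjusted p below 0.05 and at least 1.5-fold. DESeq2 1.42.0, other scalings, filters, a replicate block and leaving out each mouse were the alternatives. CPM used TMM factors over 12 libraries. Ratios over low counts carry exact 95% intervals that cover counting error only. The labels do not say that the mice come from separate litters, and p-values measure the spread between these mice. The test was checked on simulated counts.

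Members are named by symbol as in the table. Values in each mouse are given for up to 5 members of each role with the smallest p among those called after ICH in Fabp4flox/flox mice, the 4 with the smallest p between genotypes after ICH, and Cxcr2, Ccr2, Cxcl12, Cxcr4, Cx3cl1, Ackr1 and Ackr3. Cxcl2 and Cxcl15 were added after their values were seen, and of each pathway list the 2 genes with the smallest p in each direction are named. Values of 1 member, which the counts include, are not reported here. The members and lists were chosen with earlier results of these data known. Promoters came from RefSeq (GRCm38.p6), gene overlaps from GENCODE M21. Ackr1, Ackr4, Ccl21a, Ccl21b, Ccl27a, Ccl27b, Cxcl16 and Cxcr2 had values that were not whole, so reads were shared with other features, and their levels are less certain. Cxcl10 and Ccl27a overlap Art3 and Il11ra1 on the opposite strand.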

Additional observations from a re-analysis of the deposited data

How the results depend on the processing

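Precision was limited by 3 mice per group, and members near 3 counts in sham mice have uncertain folds. The share of all genes called can also move with the setting. Where no such share stands beside a count in this section, the count is not read as a result about the members. With at least 10 counts in every library, 7 of 15 members rose after ICH in Fabp4flox/flox mice (25.2% of all genes) and 7 of 16 in Fabp4CKO mice. The counts fell since members at low sham counts leave the test. DESeq2 called 1 member lower in each of these comparisons, 2 higher and 1 lower between genotypes after ICH, 1 lower in sham and 1 higher for the interaction, and with all 12 libraries in 1 fit 1 was higher between genotypes after ICH. The replicate numbers were not treated as pairs in the main fits. Not every same-numbered pair correlated above 0.1 (mean correlations 0.17, 0.01, -0.14 and -0.12 in the 4 comparisons of 2 groups). With 3 mice per group, this cannot show that the mice were unpaired. With the replicate block, 27 members were higher and 1 lower after ICH in Fabp4flox/flox mice and 28 and 1 in Fabp4CKO mice, Cx3cl1 being the lower one in both, and 0 between genotypes after ICH. With each mouse left out in turn, the members called ranged from 25 to 28 higher and 0 to 2 lower after ICH in Fabp4flox/flox, 15 to 31 higher and 0 to 3 lower in Fabp4CKO, 0 to 4 higher and 0 to 3 lower in sham, and 0 to 2 higher for the interaction; between genotypes after ICH they stayed at 0.

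Counts at an unadjusted p below 0.05 and at least 1.5-fold under the alternatives were added after seeing the data. Between genotypes after ICH the 3 higher members became 5 by DESeq2, without the filter, with the block and with 12 libraries, and 0 with at least 10 counts in every library, and the 4 lower became 2 with the block. In sham the 3 lower became 7 without the filter. For the interaction the 5 higher became 8 by DESeq2 and 1 with at least 10 counts in every library, and the 1 lower became 2 without the filter. With a mouse left out they ranged from 2 to 10 higher and 2 to 4 lower between genotypes after ICH, 0 to 2 and 1 to 5 in sham, and 3 to 11 and 0 to 4 for the interaction.

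Some log2 fold changes changed sign in some fits, and the cause was not tested. Not all of them were near 0 in the main fit, where that of Cxcl5 for the interaction was at least 1.04. With the block, Pf4 was at -0.28 for the interaction, Ccl22 at -0.0189 between genotypes after ICH and Cxcl5 at 0.48 after ICH in Fabp4flox/flox mice. The lowest and highest values with a mouse left out follow for each such member. After ICH they were -0.59 and 1.77 for Cxcl5 and -0.10 and 0.27 for Ackr3 in Fabp4flox/flox, and -0.13 and 0.26 for Ackr1 in Fabp4CKO mice. Between genotypes after ICH they were -0.81 and 0.65 for Pf4, -0.53 and 0.20 for Ccl12, -0.57 and 0.96 for Ccl7, -0.16 and 0.39 for Ccl22, -0.0364 and 1.05 for Ccr1, -0.0585 and 0.85 for Ccr2, -0.77 and 0.19 for Ccr7, -0.59 and 0.0858 for Cxcr3, -0.43 and 0.89 for Cx3cl1 and -0.33 and 0.0509 for Ackr3. In sham they were -0.71 and 0.23 for Ccl6, -0.00500 and 0.47 for Cxcr4, -0.20 and 0.0516 for Ackr1 and -0.56 and 0.32 for Ccrl2. For the interaction they were -0.77 and 1.08 for Cxcl10, -0.62 and 0.90 for Pf4, -0.0686 and 1.38 for Ccl2, -0.23 and 0.88 for Ccl22, -1.38 and 0.18 for Ccr7, -0.35 and 3.52 for Cxcr6, -0.89 and 4.63 for Cxcr3, -0.0657 and 2.29 for Cxcl5, -0.70 and 0.61 for Cx3cl1 and -0.0161 and 0.39 for Ackr3. The remaining members whose values are given for each mouse kept their sign under the alternatives run for them. Of members named by a fold change alone, Cxcl14 and Ackr2 after ICH in Fabp4flox/flox mice ranged from -0.0489 to 0.23 and from -0.15 to 1.15 with a mouse left out.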
